A study of Mus musculus with 8 samples.

Results

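The proteasome genes were followed in mouse medial prefrontal cortex after a single severe stressor. A probe was a member if its gene symbol began with Psma, Psmb, Psmc, Psmd or Psme and a digit and its signal stood above background (a detection p below 0.05) on 4 or more of the 8 arrays. The symbols caught 80 probes of 45 genes, of which 64 probes of 41 genes met the detection limit. Of these genes, Psmc3ip, a partner of the meiotic recombinases, and Psme3ip1, a protein that binds Psme3, are not subunits, and their log2 differences of 0.12 and -0.02 enter no count below. That leaves 61 tested probes of 39 proteasome genes, among 20531 tested probes and 11018 named genes in all. The other 15 proteasome probes were not tested. They include every probe of Psma1, Psma3, Psma6 and Psmd3, which were detected on 0 of the 8 arrays, so 4 of the 43 proteasome genes on the array have no value here.

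The IMO group (4 arrays, replicates 1 to 4) came from male mice aged 10 weeks that had been immobilized for 2 h and were examined 6 days later. The No stress group (4 arrays, replicates 5 to 8) came from mice of the same sex and age without immobilization. RNA came from 1 mm punches of both hemispheres and was read as biotin-labelled cRNA on Illumina bead arrays, which give one signal per probe. Whether the arrays are separate animals is not given in the labels, and the p-values therefore cover the spread among these arrays alone. A punch holds many cell types, in which fewer cells of a type and less RNA per cell cannot be told apart.

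The proteasome degrades proteins that carry ubiquitin chains. Its core particle is a barrel of alpha and beta rings, with the proteolytic sites in the beta subunits Psmb5, Psmb6 and Psmb7. In the immunoproteasome, which interferon induces, these are exchanged for Psmb8, Psmb9 and Psmb10, and the peptides made are loaded on MHC class I. A regulatory particle of Psmc ATPases and Psmd non-ATPase subunits recognises, unfolds and feeds substrates, and Psme proteins form other caps. In neurons, proteasome activity takes part in the turnover of synaptic proteins.

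Each array detected 20012 to 21038 of its 45281 probes. The vesicular glutamate transporter gene Slc17a7 had log2 signals of 12.28 to 13.07 over the arrays. Among cortical layer markers, Tle4 (10.59 to 11.16) and Crym (11.20 to 11.83) had narrower ranges and Fezf2 (9.70 to 11.88) a wider one. IMO replicate 1 and No stress replicate 6 stood apart. Prkcd, a kinase gene abundant in thalamus, had log2 signals of 10.10 and 10.30 there, against 7.37 to 7.69 on the other arrays. The cortical gene Cux2 had 7.85 and 8.04, against 9.15 to 9.80. With each gene centred on its mean over the arrays, 4 upper-layer markers averaged -0.314 and -0.551 there, against -0.188 to 0.382 elsewhere. The 4 tested deep-layer markers averaged -0.399 and 0.18, against -0.418 to 0.35. Values without IMO replicate 1 and No stress replicate 6 stand beside some, not all, of the results that leaving them out moved. A second deposited table bears the same column names over other signals. The deposited detection p-values stand beside the signals of that second table. The values below come from the other table, whose signals run in step with those p-values. The sources used here leave undecided which table holds the labelled samples.

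Differences between IMO and No stress punches were small across the proteasome genes and ran both ways. By the brightest tested probe of each gene, 20 of the 39 genes had higher and 19 lower mean signal in IMO, and the median log2 difference was 0.0025, against -0.0088 over all 11018 genes. By limma with Benjamini-Hochberg adjustment over all probes, 0 of the 61 proteasome probes had an adjusted p under 0.05 (0% of all probes had one), and the smallest adjusted p was 0.333. At an unadjusted limma p under 0.05 stood 2 of the 39 genes (5.13%), Psmd1 and Psme3, both higher in IMO, where 10.6% of all genes did. Counted by probe, 5 of 61 did (8.2%, against 10.6% of all probes), 3 higher and 2 lower (5.19% and 5.44% of all probes). The IMO and No stress values did not overlap in 2 genes, Psmb2 and Psmc4 (5.13%, against 7.17% of all genes), and in 5 probes (8.2%, against 6.92% of all probes). These shares lie near or below those of the whole array.

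The gene differences ran from -0.18 (Psmd8) to 0.24 (Psmd1), with a median size of 0.0712 on the log2 scale, against 0.0989 over all genes. Among genes of mean log2 signal above 9 the median sizes were 0.0873 for 28 proteasome genes and 0.0932 for all 4264 such genes. The 95% interval of the difference lay within 1.25-fold either way for 27 of the 39 genes (69.2%, against 40.5% of all genes) and within 1.5-fold for 39 of 39 (91.3% of all genes). The outermost bounds were -0.42 for Psmd9 and 0.49 for Psmd5, that is changes of -25.2% and 40.2%. The median range of a gene over the 8 arrays was 0.366, against 0.463 over all genes, and the median SD within a group was 0.125, against 0.148. Mean log2 signal was above 9 in 28 of the 39 proteasome genes and in 4264 of all 11018 genes. The interval shares, ranges and SDs were not matched for signal. These comparisons with all genes are descriptions without a test.

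**Figure D1:**
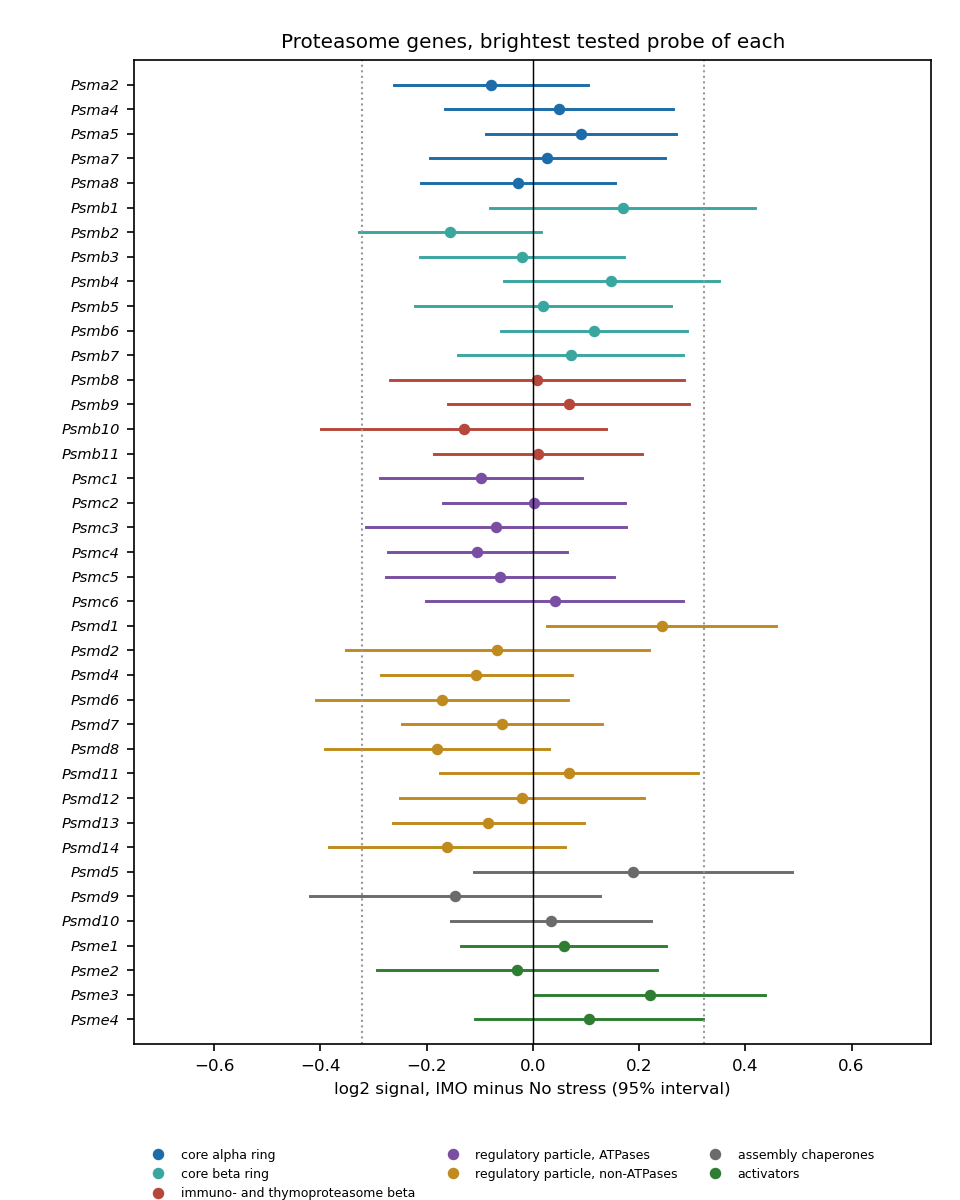
Difference in log2 signal, IMO minus No stress, for the brightest tested probe of each of the 39 proteasome genes, coloured by subunit class. Points are differences of the means of 4 arrays each, bars are 95% limma intervals, and dotted lines mark 1.25-fold; the intervals of Psmd1 and Psme3 alone lie wholly above 0, and no interval lies wholly below it.

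The alpha ring forms the outer gates of the core barrel. Its 5 tested genes had a median difference of 0.03, 3 higher and 2 lower in IMO. Psma5 had the smallest p of the ring (log2 difference 0.09, limma p 0.288, adjusted p 0.742), averaging 12.13 ± 0.0919 in IMO and 12.04 ± 0.0499 in No stress (SD, n = 4 each). Its groups overlapped, and its dimmer probe had a difference of -0.06. Psma2 had 12.41, 12.38, 12.40 and 12.46 in IMO, against 12.43, 12.65, 12.42 and 12.47 in No stress (difference -0.08, limma p 0.366). Here the No stress mean was carried by replicate 6, and without it and IMO replicate 1 the difference was -0.03. The differences of Psma4 and Psma7 were 0.05 and 0.03, and 0.09 and 0.11 without those 2 arrays. Psma8, which replaces Psma7 in the proteasome of the testis, was at the detection limit, detected on 2 IMO and 2 No stress arrays with means of 6.07 and 6.09.

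Of the 7 constitutive beta genes, 5 had higher and 2 lower mean signal in IMO, with a median of 0.07, and none had an unadjusted limma p under 0.05. Psmb2, a subunit without proteolytic activity, had the smallest p. Its signals were 11.24, 11.34, 11.22 and 11.21 in IMO, against 11.34, 11.43, 11.38 and 11.48 in No stress. Every IMO value lay at or below the lowest No stress value, by a margin within rounding, and the difference was -0.16 (standard error 0.0776, limma p 0.0717, adjusted p 0.519). A two-sided exact permutation test gave p = 0.0286, the lowest possible with 4 arrays a group, but the second tested probe of Psmb2 had a difference of 0.04. Psmb4, a further structural subunit, had 12.64, 12.62, 12.73 and 12.47 in IMO, against 12.46, 12.58, 12.32 and 12.51 in No stress (difference 0.15, limma p 0.136, adjusted p 0.607). Psmb1 had 11.07, 11.51, 11.41 and 11.44 in IMO, against 11.02, 11.32, 11.23 and 11.18 in No stress, a difference of 0.17 (limma p 0.163). The lowest value of each group came from replicates 1 and 5. With IMO replicate 1 and No stress replicate 6 left out the difference of Psmb1 was 0.31 (limma p 0.0111, adjusted p 0.336).

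None of the 3 proteolytic subunits of the constitutive core passed the test at any probe. Psmb5, which carries the chymotrypsin-like site, had 10.40, 10.09, 10.20 and 10.31 in IMO, against 10.27, 10.27, 10.40 and 9.99 in No stress, a difference of 0.02 (limma p 0.869). Psmb6, with the caspase-like site, had 11.59, 11.72, 11.70 and 11.74 in IMO, against 11.50, 11.61, 11.64 and 11.54 in No stress (difference 0.11, limma p 0.176), while its second probe had a difference of -0.18 (limma p 0.0615). The probes of Psmb6 thus point opposite ways. Psmb7, with the trypsin-like site, had 11.86, 12.01, 12.06 and 11.98 in IMO, against 11.77, 11.97, 12.08 and 11.81 in No stress (difference 0.07, limma p 0.473). Its 4 tested probes ran from -0.07 to 0.35, the widest of them at limma p 0.0663, and without IMO replicate 1 and No stress replicate 6 that probe had 0.51 (limma p 0.0221).

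None of the inducible subunits passed the test. Psmb8 had log2 signals of 7.24, 7.16, 6.67 and 6.97 in IMO, against 6.91, 7.13, 7.03 and 6.93 in No stress. The IMO values spread more widely, and the difference was 0.01 with an interval from -0.27 to 0.28 (limma p 0.955). A second Psmb8 probe was detected on 1 array and was not tested. Psmb9 had 6.87, 6.79, 6.68 and 6.96 in IMO, against 6.83, 6.68, 6.58 and 6.94 in No stress, a difference of 0.07 with an interval from -0.16 to 0.29 (limma p 0.523). The ranges of both groups nearly coincide. Psmb10 had 9.87, 10.20, 10.03 and 9.99 in IMO, against 9.91, 10.06, 10.19 and 10.43 in No stress, a difference of -0.13 with an interval from -0.40 to 0.14 (limma p 0.305). Its second probe had a difference of -0.10, close to that of the first. On average Psmb8 and Psmb9 lay less than 1 log2 unit above the signal of about 6.11 at which a probe reached the detection limit, where differences are compressed. Psmb11, the thymus-specific subunit, was at that limit, detected on 2 IMO and 2 No stress arrays with means of 6.10 and 6.09.

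**Figure D2:**
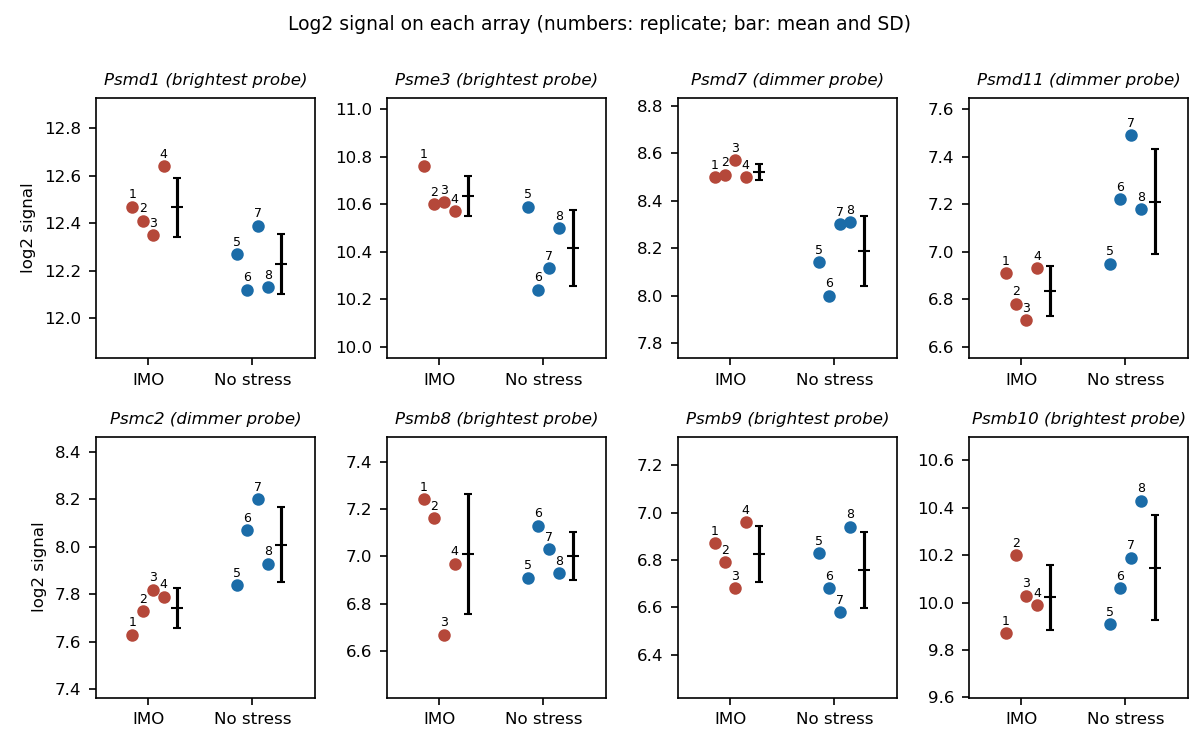
Log2 signal on each array for the 5 probes with an unadjusted limma p under 0.05 and for the 3 immunoproteasome genes, with the IMO arrays left and the No stress arrays right in each panel. Points are arrays with their replicate numbers, bars show mean and SD of 4 arrays, and the axes have different origins; Psmd7, Psmd11 and Psmc2 (dimmer probes) show no overlap, while the groups of Psmb8, Psmb9 and Psmb10 overlap.

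Exchange of catalytic subunits was also read as the log2 signal of each inducible subunit minus that of its constitutive counterpart on the same array. Such a difference carries the brightness of 2 probes, so only its change between groups is meaningful. For Psmb8 minus Psmb5 the groups differed by -0.01 (two-sided exact permutation p 0.943), and for Psmb9 minus Psmb6 by -0.05 (exact permutation p 0.714). Psmb10 minus Psmb7 averaged -1.96 ± 0.0989 in IMO and -1.76 ± 0.257 in No stress (SD, n = 4 each), a difference of -0.20 (exact permutation p 0.114). Adjusted over the 3 pairs these p were 0.943, 0.943 and 0.343. The wider No stress spread came from replicate 8 at -1.37, the others lying between -1.92 and -1.85.

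Promoters of 4 members are printed because they set the constitutive subunit Psmb5 beside its inducible counterpart Psmb8, and show Psmd1 and Psme3, the genes with an unadjusted p under 0.05; they were chosen after the values were seen. Each is the RefSeq sequence (GRCm38.p6) of 250 bases before and 50 bases after the gene's start, read in the direction of the gene. Capitals mark the letters TGANNNNGC on either strand, a core of the antioxidant response element to which factors of the Nfe2l family bind.
Psmb5 (chr14:54617946-54618245, minus strand): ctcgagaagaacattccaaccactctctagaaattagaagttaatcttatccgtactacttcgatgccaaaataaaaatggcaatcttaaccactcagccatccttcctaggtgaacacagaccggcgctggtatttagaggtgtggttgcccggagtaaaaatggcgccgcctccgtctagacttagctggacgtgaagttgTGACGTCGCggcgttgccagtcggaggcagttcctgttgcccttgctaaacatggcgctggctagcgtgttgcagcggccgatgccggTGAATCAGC
Psmb8 (chr17:34197945-34198244, plus strand): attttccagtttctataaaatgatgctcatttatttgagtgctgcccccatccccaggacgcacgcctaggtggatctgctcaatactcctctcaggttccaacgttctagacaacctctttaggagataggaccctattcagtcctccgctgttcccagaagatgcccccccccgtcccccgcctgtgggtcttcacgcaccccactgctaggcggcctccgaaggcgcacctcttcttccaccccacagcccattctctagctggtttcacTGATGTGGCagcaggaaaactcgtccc
Psmd1 (chr1:86064369-86064668, plus strand): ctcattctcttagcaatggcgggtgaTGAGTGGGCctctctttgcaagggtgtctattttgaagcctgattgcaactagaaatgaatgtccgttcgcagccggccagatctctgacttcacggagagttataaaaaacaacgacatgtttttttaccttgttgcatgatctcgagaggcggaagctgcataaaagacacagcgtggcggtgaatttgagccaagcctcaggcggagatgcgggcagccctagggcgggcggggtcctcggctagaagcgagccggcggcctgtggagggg
Psme3 (chr11:101315963-101316262, plus strand): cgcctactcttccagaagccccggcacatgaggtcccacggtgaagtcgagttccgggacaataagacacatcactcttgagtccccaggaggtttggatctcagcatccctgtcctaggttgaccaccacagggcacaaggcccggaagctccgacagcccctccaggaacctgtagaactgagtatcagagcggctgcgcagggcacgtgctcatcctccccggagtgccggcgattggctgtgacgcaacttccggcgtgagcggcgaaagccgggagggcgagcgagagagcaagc
Psmb5 holds 2 matches, Psmb8 and Psmd1 hold 1 each and Psme3 has none. Among all member genes, 37 could be matched by symbol to 40 such windows, of which 23 hold the motif (57.5%, against 41.3% of 32851 promoters of the same length). The word GAAA followed after any 2 letters by GAAA again, a core of the interferon-stimulated response element, were in 4 of the 40 windows (10%, against 3.44% of all), those of Psmb3, Psmd4, Psmd9 and Psme1. Both motifs were sought on both strands, and the windows printed here hold no match of the second, so no matches overlap in them. A match is a description of the sequence, not a site.

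The base of the regulatory particle is a ring of ATPases that unfolds substrates. Of its 6 genes 2 had higher and 4 lower mean signal in IMO, with a median of -0.07, and none had an unadjusted limma p under 0.05 at its brightest probe. Psmc4 had 11.17, 11.30, 11.34 and 11.25 in IMO, against 11.37, 11.39, 11.35 and 11.37 in No stress. The groups were parted by about 0.01, and the difference was -0.10 (limma p 0.199, adjusted p 0.675, exact permutation p 0.0286). Psmc1 had a difference of -0.10 (limma p 0.281), Psmc3 of -0.07 and Psmc5 of -0.06. The brightest probe of Psmc2 showed 12.26, 12.33, 12.26 and 12.32 in IMO, against 12.22, 12.25, 12.30 and 12.39 in No stress, a difference of 0.00. Its dimmer probe had 7.63, 7.73, 7.82 and 7.79 in IMO, against 7.84, 8.07, 8.20 and 7.93 in No stress (difference -0.27, standard error 0.0977, limma p 0.0198, adjusted p 0.394). That lower signal was therefore seen at 1 of the 2 probes, and its unadjusted p was 0.0527 without IMO replicate 1 and 0.0585 without No stress replicate 7. Without IMO replicate 1 and No stress replicate 6 that probe had -0.21 (limma p 0.0956), and Psmc5 had -0.18 (limma p 0.0737). Psmc6 was dim, detected on 7 arrays, with a difference of 0.04.

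Among the non-ATPase subunits 8 of 10 genes had lower mean signal in IMO, with a median of -0.08. Over the whole regulatory particle the split was 4 higher and 12 lower (median -0.07), and over the constitutive core particle 8 higher and 4 lower (median 0.04), beside 5245 higher and 5773 lower over all genes. Without IMO replicate 1 and No stress replicate 6 the regulatory particle had 5 higher and 11 lower and the core 8 higher and 4 lower. None of these 28 genes passed after adjustment, and genes of one array are not independent. Psmd8 had the lowest difference (10.49, 10.65, 10.69 and 10.39 in IMO, against 10.70, 10.87, 10.65 and 10.72 in No stress, -0.18, limma p 0.0866), and -0.11 (limma p 0.32) without those arrays. Psmd14, the deubiquitinase that removes ubiquitin chains at the particle's entrance, had -0.16 and -0.15 at its probes (limma p 0.138 and 0.118). Psmd6 had -0.17 and -0.20. Psmd4, a ubiquitin receptor, had -0.11, and -0.05 without IMO replicate 1 and No stress replicate 6. Psmd2, a scaffold that binds ubiquitin-like domains, had -0.07 at signals of 6.32 to 6.97. Psmd13 (-0.08), Psmd7 (-0.06), Psmd12 (-0.02) and Psmd11 (0.07) complete the list.

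Psmd1, the other large scaffold of the regulatory particle, was one of the 4 genes of the particle with higher mean signal in IMO, beside Psmd11, Psmc2 and Psmc6. Its brightest probe had 12.47, 12.41, 12.35 and 12.64 in IMO, against 12.27, 12.12, 12.39 and 12.13 in No stress. The 3 highest arrays were all IMO, and No stress replicate 7 lay above IMO replicate 3. The means were 12.47 ± 0.124 in IMO and 12.22 ± 0.128 in No stress (SD, n = 4 each), a difference of 0.24 (standard error 0.0977, limma p 0.031, adjusted p 0.426, exact permutation p 0.0571). Its other probes had 0.14 and 0.04. The unadjusted p was 0.0515 without IMO replicate 1, 0.0929 without IMO replicate 4, 0.0789 without No stress replicate 6 and 0.0809 without No stress replicate 8. With IMO replicate 1 and No stress replicate 6 both left out the difference was 0.21 (limma p 0.106).

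Psmd7 and Psmd11 had their lowest p at dimmer probes, in opposite directions. The dimmest Psmd7 probe had 8.50, 8.51, 8.57 and 8.50 in IMO, against 8.14, 8.00, 8.30 and 8.31 in No stress, with no overlap (difference 0.33, standard error 0.092, limma p 0.00431, adjusted p 0.333). The brightest probe of the gene had -0.06 and the third 0.12. The dimmer Psmd11 probe had 6.91, 6.78, 6.71 and 6.93 in IMO, against 6.95, 7.22, 7.49 and 7.18 in No stress (difference -0.38, standard error 0.116, limma p 0.00837, adjusted p 0.346). Only about 0.02 parts the groups there, and the brightest Psmd11 probe had 0.07. The dimmer Psmd11 probe averaged 6.83 in IMO and 7.21 in No stress, near the detection limit of about 6.11, where differences are compressed. Both dimmer probes kept an unadjusted p under 0.05 when any single array was left out.

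Psmd5, Psmd9 and Psmd10 are chaperones that assemble the base of the regulatory particle and leave it afterwards. Psmd5 had 7.05, 6.77, 6.84 and 7.11 in IMO, against 6.42, 7.01, 6.89 and 6.70 in No stress (difference 0.19, limma p 0.191). Psmd9 had 7.01, 7.19, 7.00 and 7.47 in IMO, against 7.34, 7.47, 7.34 and 7.11 in No stress (difference -0.15, limma p 0.262), and its second probe, detected on 7 arrays, had 0.06. Without IMO replicate 1 and No stress replicate 6 Psmd9 had -0.04 (limma p 0.772). Both genes have wide spreads and overlapping groups, and Psmd10 had 0.03.

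The activators cap the core in place of the regulatory particle. Psme3, the activator of the nucleus, had 10.76, 10.60, 10.61 and 10.57 in IMO, against 10.59, 10.24, 10.33 and 10.50 in No stress. A single No stress array, replicate 5, reached into the IMO range, and the difference was 0.22 (standard error 0.0981, limma p 0.0474, adjusted p 0.466, exact permutation p 0.0571). The unadjusted p was under 0.05 when No stress replicate 5 or 8 was left out (0.0195 and 0.0472) and 0.0544 to 0.132 without any other single array, and with IMO replicate 1 and No stress replicate 6 both left out the difference was 0.12 (limma p 0.261). Psme1 and Psme2, the interferon-inducible pair that joins the immunoproteasome, had smaller differences. Psme1 had 10.39, 10.64, 10.53 and 10.53 in IMO, against 10.48, 10.36, 10.44 and 10.57 in No stress (0.06, limma p 0.519). Psme2 had 7.22, 7.55, 7.57 and 7.62 in IMO, against 7.26, 7.58, 7.65 and 7.60 in No stress (-0.03, limma p 0.804). In both groups 1 array lay about 0.3 below the rest, and without IMO replicate 1 and No stress replicate 6 the difference was 0.08. Psme4, which binds acetylated substrates, had 10.21, 9.86, 9.94 and 9.89 in IMO, against 9.87, 9.77, 9.93 and 9.92 in No stress (0.11, limma p 0.3), its IMO mean raised by replicate 1. Without that array and No stress replicate 6 the difference was -0.0063.

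Probes of one gene often disagreed. Of the 17 proteasome genes with several tested probes, 10 had differences of both signs. The median gap between the highest and lowest difference of a gene was 0.15 and the widest was 0.444, for Psmd11, wider than any single gene difference by the brightest probe. Psmd14, with a gap of 0.0086, Psmd6 with 0.0292 and Psmb10 with 0.0302 were the genes whose probes lay nearest among those with lower signal in IMO. Choice of probe moved the difference of most of these 17 genes by more than the median size of a gene difference.

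**Figure D3:**
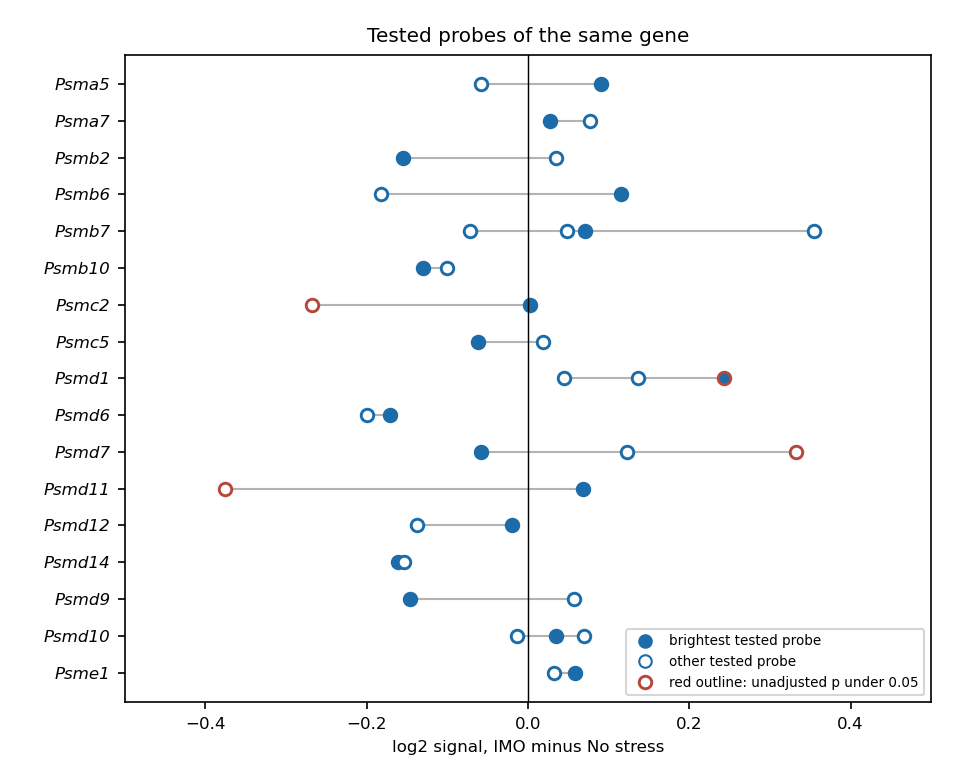
Difference in log2 signal, IMO minus No stress, at every tested probe of the 17 proteasome genes with several tested probes. Filled points are the brightest probe, open points the others, grey lines span a gene and red outlines mark an unadjusted limma p under 0.05; 10 genes have points on both sides of 0, and the widest span is 0.444 for Psmd11.

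Genes that build, regulate or supply the proteasome were compared through 7 lists of 52 genes, of which 40 were named on the array and 33 tested. Of these, 9 had higher and 24 lower mean signal in IMO (median -0.05), 1 had an unadjusted limma p under 0.05 (3.03%, against 10.6% of all genes) and 0 passed after adjustment. Nfe2l1, the factor that raises transcription of proteasome genes when proteasome activity falls short, had 11.80, 11.68, 11.78 and 11.91 in IMO, against 12.04, 11.72, 11.99 and 12.06 in No stress (difference -0.16, limma p 0.141). No stress replicate 6 was the low one of its group, and with it and IMO replicate 1 left out the difference was -0.24 (limma p 0.037). Nfe2l2 was near the detection limit with 0.11 (limma p 0.509). Of the core chaperones, 1 of 4 tested was higher and 3 lower (Psmg1 0.11, limma p 0.221, and Psmg2 -0.05). The inhibitor Psmf1 was not tested. Among 7 associated factors 2 were higher and 5 lower. The deubiquitinase Uchl5 had 0.16 (limma p 0.0891) and Zfand2a, an arsenite-inducible proteasome partner, -0.19 (limma p 0.0885). None of these 7 had an unadjusted limma p under 0.05, where 10.6% of all genes did. Without IMO replicate 1 and No stress replicate 6, 1 of the 7 did, beside 1268 of all 11018 genes. Of 4 ubiquitin shuttles 3 were higher and 1 lower, Ubqln2 at 0.10 and Ubqln4 at -0.18 (limma p 0.0911). Of 6 genes of the Vcp segregase, which extracts ubiquitinated proteins, 1 was higher and 5 lower (Faf2 0.15, Ufd1 -0.11), and the activating enzyme Uba6 had -0.04.

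By the brightest tested probe, all 8 tested genes of MHC class I presentation and its inducers had lower mean signal in IMO (median -0.10), where 5773 of 11018 genes did (52.4%). Dimmer probes of the inducer Irf1 had -0.02, 0.18 and 0.03. An unadjusted limma p under 0.05 was reached by 1 of the 8 (12.5%, against 10.6% of all genes). Without IMO replicate 1 and No stress replicate 6, 7 of the 8 were lower, with a median of -0.15. H2-K1, a class I heavy chain, had 6.87, 6.74, 6.38 and 6.78 in IMO, against 6.92, 7.12, 6.94 and 7.10 in No stress. No value overlapped, and the difference was -0.33 (standard error 0.115, limma p 0.0171, adjusted p 0.379). These signals lie near the detection limit of about 6.11, as do those of Psmb8 and Psmb9. H2-D1 is a heavy chain with brighter signals. Its brightest probe had 9.32, 8.76, 8.41 and 8.45 in IMO, against 8.70, 8.81, 8.77 and 8.94 in No stress. The difference was -0.07 (limma p 0.688), with the IMO mean raised by replicate 1. Tapbp had -0.02. Class I genes are close copies of each other, so a probe named for one may also take up others. B2m, the light chain, had -0.13 at its brightest probe and -0.34 at a dimmer one (11.23, 11.19, 10.81 and 10.82 in IMO, against 11.15, 11.50, 11.33 and 11.43 in No stress, limma p 0.0203, adjusted p 0.398). The unadjusted p of that B2m probe was 0.0648 without IMO replicate 3, 0.0623 without IMO replicate 4, 0.0563 without No stress replicate 6 and 0.0511 without No stress replicate 8. Tap2, a subunit of the peptide transporter, had -0.19 (limma p 0.138) and -0.096 without IMO replicate 3. Markers of endothelium and microglia, cells rich in class I, also had medians below 0. All 5 endothelial markers were tested, 1 higher and 4 lower with a median of -0.34 and 2 at an unadjusted p under 0.05, and their mean centred log2 signal was -0.321 to 0.217 on IMO arrays and -0.041 to 0.362 on No stress arrays. All 8 microglial markers were tested, 3 higher and 5 lower with a median of -0.13. The 2 microglial markers at an unadjusted p under 0.05 ran opposite ways, P2ry12 lower (-0.43) and Cx3cr1 higher (0.20). The microglial array means were -0.092 to -0.012 in IMO and -0.084 to 0.174 in No stress. All 3 tested blood markers were lower, with a median of -0.69 and 2 at an unadjusted p under 0.05 (the hemoglobin genes Hba-a1 and Hbb-bt), and array means of -0.794 to 0.353 in IMO and -0.034 to 1.116 in No stress. All 5 tested myelin markers were lower, with a median of -0.36 and 0 at an unadjusted limma p under 0.05. The part of these cells in the class I values was not tested.

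The mean centred log2 signal of the 39 genes was -0.018 to 0.019 on the IMO arrays and -0.051 to 0.050 on the No stress arrays. Markers of tissue beneath the cortex stood at 0.912 on IMO replicate 1 and 0.961 on No stress replicate 6, against -0.507 to -0.088 elsewhere, and myelin markers at 1.016 and 1.279, against -0.720 to 0.059. Of the other marker lists, the 4 neuron markers (-0.114 to 0.142) and the 8 microglial markers (-0.092 to 0.174) varied least over the arrays. Their ranges were much as that of the 4 immunoproteasome and thymoproteasome genes (-0.117 to 0.139). Blood markers ran from -0.794 to 1.116, inhibitory neuron markers from -0.401 to 0.765 and astrocyte markers from -0.505 to 0.514. Upper-layer markers ran from -0.551 to 0.382, deep-layer markers from -0.418 to 0.35 and endothelial markers from -0.321 to 0.362. The activators had 0.033 to 0.051 in IMO and -0.125 to 0.037 in No stress. With IMO replicate 1 and No stress replicate 6 left out, 53 of the 61 proteasome probes kept the sign of their difference. In that setting 4 probes (6.56%, against 11.5% of all probes) had an unadjusted limma p under 0.05, in Psmb1, Psmb7, Psmd7 (0.27) and Psmd11 (-0.40). Among genes by brightest probe this left 1 of 39, Psmb1 (2.56%), and 0 had an adjusted p under 0.05, which 0.00487% of all probes had.

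**Figure D4:**
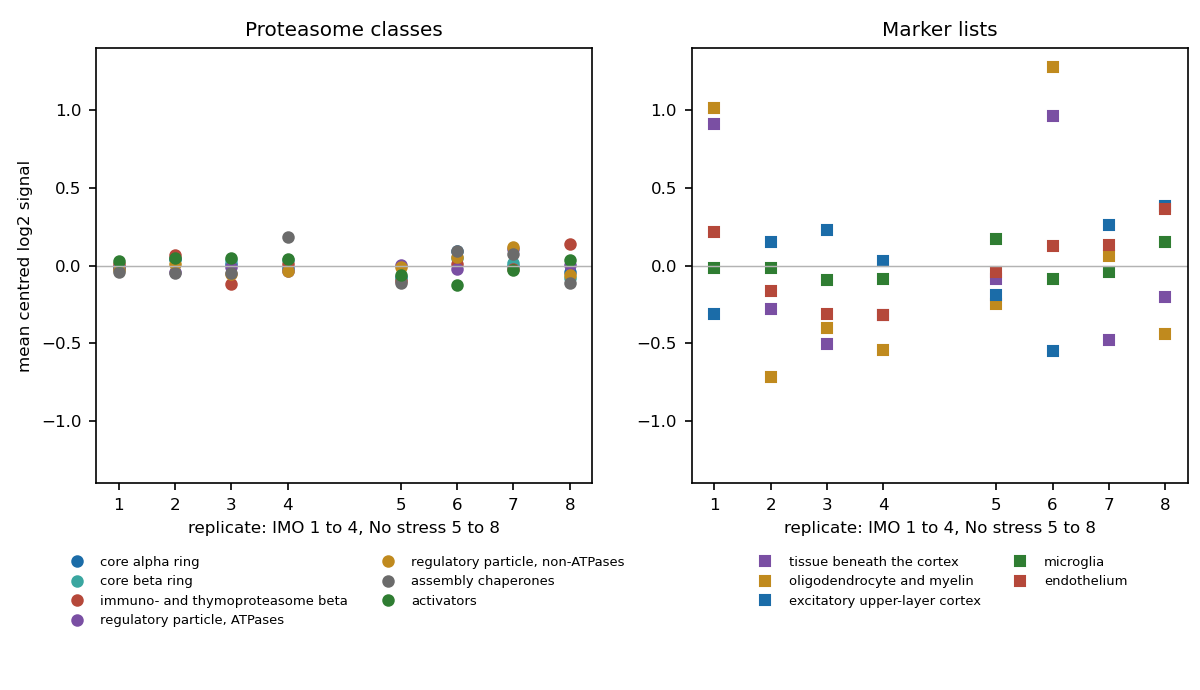
Mean log2 signal of each proteasome class (left) and of 5 marker lists (right) on each array, every gene centred on its mean over the 8 arrays, with IMO replicates 1 to 4 left of No stress replicates 5 to 8. The marker lists for myelin and tissue beneath the cortex are raised on IMO replicate 1 (1.016 and 0.912) and No stress replicate 6 (1.279 and 0.961), the microglial list lies between -0.092 and 0.174, and no proteasome class passes 0.185 on any array.

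Under the same column names the second deposited table gave other values. It was deposited as non-normalized data, and its log2 signals were fitted without normalization. The columns of the table used above were already alike in distribution, so the 2 tables are compared across unlike processing. There 2 of 61 proteasome probes (3.28%, against 2.76% of all probes) had an unadjusted limma p under 0.05, Psma8 (0.21) and Psmb10 (0.20), and 0 an adjusted one. The differences had the same sign as above in 26 of 61 probes, and in 17 of 61 without the column for IMO replicate 3. That column for IMO replicate 3 stood apart from the other 7 at Psmb8, Psmb9 and Psmb1, with log2 signals of 8.32, 8.87 and 9.24. Without that column 2 of 61 probes (3.28%, against 6.7% of all probes) had an unadjusted limma p under 0.05, again in Psma8 (0.23) and Psmb10 (0.24), and the difference of Psmb9 was -0.23 (limma p 0.0776) where it was 0.38 with it.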

How the data were processed

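In 2 tables the authors deposited, each probe has a linear signal intensity on every array. The deposited detection p-values stand in the second of these tables, beside its signals, and were matched to the first by probe and column name. The steps after scanning are not given in the sources used here. Per the labels' protocols, RNA was isolated on RNeasy columns and amplified with the Ambion MessageAmp method. The columns of the deposited intensity table are already alike in distribution and were not normalized again. The detection p-values never rose with rising signal in that table (0% of steps), against 33.4% to 36.8% of steps in the second table, so the first was analysed.

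Log2 signals (no pseudocount added) of probes detected at p below 0.05 on 4 or more of 8 arrays were tested with limma 3.58.1 in R 4.3.3 (statmod 1.5.0 for array weights), IMO minus No stress, with Benjamini-Hochberg adjustment over 20531 probes. The fit was tested on simulated data. Precision is limited by the number of arrays, with a median standard error of 0.108 over all probes. Probes were named by the platform annotation (0 symbols changed on updating), and each gene was represented by its brightest tested probe. Single values had a two-sided exact permutation test over arrays. The motif search used RefSeq promoters. Protein sequences were not used here.

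The members and lists were chosen with earlier results of these data known. Named were members with an unadjusted p under 0.05 at any probe, the 2 of smallest p in each class, the catalytic pairs, Psme1 to Psme3, genes whose probes disagreed and, per pathway list, the 2 genes of smallest p and any with an unadjusted p under 0.05. Other members are named to account for each. Alternatives covered background correction, normalization, probe filters, variance settings, the second table and leaving out arrays.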

Additional observations from a re-analysis of the deposited data

Results flagged for a closer look

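In 80 groups of 4 arrays, those of the named genes, 3 had an array farther from the others than Dixon's 95% limit for the gap over the range, where chance gives about 1 in 20. At the dimmest Psmd7 probe IMO replicate 3 was the highest of its group at 8.57, the others lying between 8.50 and 8.51. For Psme2, IMO replicate 1 was the lowest at 7.22, against 7.55 to 7.62 in the rest of its group. For the ubiquitin shuttle Ubqln2, No stress replicate 6 was the lowest at 5.88, against 6.17 to 6.20.

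The second deposited table, which enters no comparison of the value table, holds a column under the name of IMO replicate 3 with a different set of subunit signals. The inducible Psmb8 stood at 8.32 there, against 6.84 to 7.14 in the other IMO columns and 6.61 to 7.26 in the No stress columns. Psmb9 stood at 8.87, against 6.24 to 6.58 in the other IMO columns and 6.52 to 6.86 in No stress. The constitutive Psmb1 stood at 9.24, against 11.06 to 11.37 in the other IMO columns and 11.24 to 11.42 in No stress. Psmb10 (9.89), Psme1 (10.65) and Psme2 (7.45) lay within 0.4 of the median of the other columns, and among the 61 proteasome probes only Psmb8 and Psmb9 lay more than 1 above that median and only Psmb1 more than 1 below (3.28% and 1.64%, against 4.59% and 0.911% of all probes). MHC class I genes were high in the same column, with H2-K1 at 9.72 (6.87 to 7.34 elsewhere), B2m at 12.55 (10.69 to 11.35) and Tap2 at 8.69 (6.73 to 7.45).

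Genes of other tissues, named after their values were seen, were high in it as well. The neutrophil and myeloid genes S100a8 (14.37, against 5.42 to 7.57 elsewhere) and Mpo (13.05, against 5.30 to 5.55), the red cell gene Slc4a1 (13.16, against 5.61 to 6.37) and the bone genes Col1a1 (13.41, against 5.96 to 7.03) and Bglap (12.72, against 5.22 to 5.44) were all more than 7 log2 units above the median of the other columns. Of further such genes looked at, S100a9 lay 8.04 above that median, the red cell gene Alas2 5.63 and the neutrophil gene Elane 5.33. Neuronal Syt1 was at 13.48, against 13.82 to 14.07, and cortical Cux2 at 9.08. The part of these genes' cells in the subunit signals was not tested. In the value table IMO replicate 3 had 6.67 for Psmb8, 6.68 for Psmb9 and 5.30 for Mpo.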

How the results depend on the processing

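The count of proteasome probes with an adjusted limma p under 0.05 was 0 with the main setting and with each of 20 alternatives. Probes at an unadjusted p under 0.05 numbered 5, against 8 with no filter on dim probes, 2 in the second table and 2 there without its column for IMO replicate 3, an alternative chosen after seeing the data. Leaving out each array gave 3 to 6 probes (3 without No stress replicate 6). Genes by brightest probe numbered 2, against 1 without IMO replicate 1 and No stress replicate 6, and 0 to 2 with single arrays left out. The count was 0 without No stress replicate 6, 2 without replicate 5 and 1 without any other array. In the second table Psmd1 was at -0.13, the dimmer Psmd11 probe at 0.16, the dimmer B2m probe at 0.30 and H2-K1 at 0.55, and without its column for IMO replicate 3 the values were -0.084 for Psmd1, 0.20 for Psmd11, 0.032 for the dimmer Psmc2 probe and -0.088 for Psme3, each opposite in sign to the value table. Without that column H2-K1 (-0.14) and the dimmer B2m probe (-0.10) had the sign of the value table. The cause was not tested. Among single named probes, 721 results over the settings kept direction and side of the threshold. Another 26 lost and 10 gained an unadjusted p under 0.05, 33 moved by more than the spread and 8 reversed. All of these 33 moves and 8 reversals came from the second table, with or without its column for IMO replicate 3. The alternatives run on the value table gave no result counted as either. The files give no slide or scan, so the slide as a block was not run. No paired analysis was possible because the groups share no replicate numbers. Signal near the detection limit compresses the differences of dim probes. Among them are those of Psmb8, Psmb9, Psmb11, Psmc6, Psmd2, Psmd5, Psma8 and H2-K1, and the dimmer Psmd11 probe.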
